A study of Mus musculus with 8 samples.

Results

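Pirb, Trem2 and 8 further receptor and adaptor genes of the paired myeloid receptor families were followed in macrophages of the infarcted mouse heart. The 10 genes, taken by name from the 53342 genes in the tables, were Pirb, Lilrb4a, Sirpa, Lilr4b, Trem2, Tyrobp, Clec4n, Clec4d, Clec4e and Clec7a. All 10 were present by symbol, and 9 passed the filter on low counts. The remaining member, Lilrb4a, was listed at 0 in every library.

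Paired receptors are families in which closely related genes encode receptors of opposite sign. Inhibitory members carry ITIM motifs, short tyrosine motifs of the cytoplasmic tail that recruit phosphatases such as SHP-1. Activating members have short tails and borrow an ITAM from an adaptor, either DAP12 or the Fc receptor gamma chain, which recruits the kinase Syk. On macrophages these receptors read MHC class I, CD47, lipids, apolipoproteins, fungal and mycobacterial sugars and products of dying cells, and they set how readily the cell phagocytoses and secretes cytokines.

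The cells were wild-type C57BL/6 macrophages from mice 8 weeks old, sorted from heart tissue 3 days after myocardial infarction by high or low surface Ly6C, an antigen of recently recruited monocytes. Each subset was then cultured for 24 hours with interleukin 21 (IL-21, 100 ng/mL), a cytokine of activated T cells that signals mainly through STAT3, or without it. The groups were Ly6Clo with IL-21, Ly6Clo without, Ly6Chi with IL-21 and Ly6Chi without, each with 2 libraries, and all cells shared the genotype, the infarct, the sort and the culture. The labels do not say whether libraries numbered 1 and 2 came from separate mice or cultures, so the p-values speak of the scatter among these 8 libraries alone, and that scatter may be technical.

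Deposited totals were 224329 to 483593 counts per library, at which 3 counts correspond to 6.58 to 14.9 CPM (the usual library-size scale for counts, here on totals scaled by TMM). Of 8 macrophage markers 7 were detected in all libraries, and the remaining one, Itgam, was listed at 0. Summed levels of Ly6c1, Ly6c2 and Ccr2 were 114 to 180 CPM in Ly6Clo libraries and 591 to 689 CPM in Ly6Chi libraries, in the direction of the sort. Ly6c2 alone was 12.0 to 74.6 CPM in Ly6Clo and 372 to 545 CPM in Ly6Chi. Ccr2 did not follow the sort, at 26.3 to 168 CPM in Ly6Clo and 36.9 to 164 CPM in Ly6Chi. Of 8 neutrophil markers, Retnlg and Ly6g were at 0, and S100a9, Lcn2 and Cxcr2 had 2, 2 and 4 counts over all libraries. Csf3r had 65 counts and S100a8 195. The summed list, mainly Mmp8, was 641 to 1262 CPM in Ly6Clo and 1400 to 2338 CPM in Ly6Chi. Summed T, B and NK cell and mast cell markers stayed at or under 14.9 CPM, and platelet markers were at 0. Endothelial markers summed to 58.1 to 204 CPM in Ly6Clo and 94.1 to 338 CPM in Ly6Chi, almost all of it Kdr. Pecam1 and Cdh5 had 3 and 2 counts over all libraries, and Tek was at 0. Dendritic cell, fibroblast and cardiomyocyte markers were low, and 0 genes of the dendritic cell and cardiomyocyte lists passed the filter on low counts. All these sums differed with IL-21 in Ly6Clo, and that of dendritic cells in Ly6Chi too, as given beside Pirb and Clec7a. What these cells contribute to the receptor levels was not tested.

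No member passed a test in the main fit given below. Upstream sequences are shown for the 3 members that passed where the replicate number was a block. Each is the 250 bases before the annotated start, read towards the gene (RefSeq, GRCm38.p6), and entries existed for 6 of the 10 members. Capitals mark matches on either strand to GAGGAA, the core bound by the myeloid factor PU.1, or to TGANTCA, the AP-1 motif. No match overlapped another.
Pirb, chr7:3720383-3720632, minus strand: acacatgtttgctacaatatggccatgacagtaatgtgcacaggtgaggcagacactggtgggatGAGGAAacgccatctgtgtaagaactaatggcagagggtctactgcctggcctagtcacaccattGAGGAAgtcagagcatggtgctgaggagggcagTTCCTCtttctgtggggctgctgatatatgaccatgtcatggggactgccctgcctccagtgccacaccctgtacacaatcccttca
Clec7a, chr6:129472780-129473029, minus strand: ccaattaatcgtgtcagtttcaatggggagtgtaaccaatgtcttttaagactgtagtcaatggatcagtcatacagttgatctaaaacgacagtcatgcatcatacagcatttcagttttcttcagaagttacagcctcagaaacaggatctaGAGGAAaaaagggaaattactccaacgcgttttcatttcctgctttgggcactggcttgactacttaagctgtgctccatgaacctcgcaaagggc
Trem2, chr17:48346151-48346400, plus strand: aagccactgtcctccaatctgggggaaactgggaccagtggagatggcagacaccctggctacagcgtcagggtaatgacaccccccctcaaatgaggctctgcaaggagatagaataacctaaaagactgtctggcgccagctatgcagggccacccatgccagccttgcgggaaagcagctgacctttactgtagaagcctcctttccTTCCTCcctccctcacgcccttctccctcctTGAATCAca

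The Pirb window held 3 PU.1 matches and the Clec7a and Trem2 windows 1 each, and Trem2 alone of these had an AP-1 match. None of the 3 windows contained TTCNNNGAA, the GAS motif bound by STAT factors, which says only that these letters are not in this stretch. Over all 32817 promoter windows of the same length, 23.3% held the PU.1 core, 6.75% the AP-1 motif and 7.02% the GAS motif. Among members that were not called, the Clec4e window held 2 PU.1 matches and the Clec4d window 1. The window entered for Lilr4b had 0 PU.1 matches and 1 GAS match, but the bases after it were not found at the start of a Lilr4b transcript. It ends at chr10:51480611, and the annotated starts are 51480612 for Gm49339 and 51480632 for Lilr4b. Any link of these matches to the levels was not tested.

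Pirb, the inhibitory receptor for MHC class I, had the highest averaged difference with IL-21 of the 9 detected members. Its level was 2.10-fold higher with IL-21 in Ly6Clo and 1.30-fold higher in Ly6Chi cells, and it passed the test on average and in Ly6Clo where the replicate number was a block. Pirb (ENSMUSG00000058818, chr7:3711409-3720391, minus strand) was read at 42 to 169 counts per library. In Ly6Clo cells its level was 400 and 416 CPM with IL-21, against 174 and 211 CPM without. In Ly6Chi cells it was 489 and 372 CPM with IL-21, against 381 and 286 CPM without. The mean was thus higher with IL-21 in each subset, and the Ly6Chi groups overlapped.

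The level of Pirb was higher with IL-21 in 4 of 4 pairs of the same subset and number, as it was for 9.87% of the genes tested. The log2 differences of these pairs were 1.17 and 0.96 in Ly6Clo and 0.35 and 0.37 in Ly6Chi. Averaged over the subsets, the log2 fold change was 0.72 (SE 0.17, a 1.65-fold difference), which did not pass (adjusted p 0.176, Benjamini-Hochberg, edgeR quasi-likelihood fit). With replicate number added to the fit as a block, the value was 0.72 (SE 0.14), and it passed (edgeR adjusted p 0.00431). In Ly6Clo alone the log2 fold change was 1.07 (SE 0.25, 2.10-fold, edgeR adjusted p 0.314), and with the block 1.05 (SE 0.20, edgeR adjusted p 0.00559). In Ly6Chi alone it was 0.38 (SE 0.24), passed neither way, and was 0.17 to 0.61 when single libraries were left out of the fit without a block.

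Summed markers of other cell types also differed with IL-21 in Ly6Clo, though at few counts. All 5 fibroblast markers were detected in some library, and their sum in Ly6Clo was 99.9 to 126 CPM with IL-21, against 20.8 to 30.7 CPM without. In Ly6Chi it was 15.1 to 74.5 CPM with IL-21 and 65.6 to 156 CPM without. All 4 cardiomyocyte markers were likewise detected, at sums of 12.3 to 76.0 CPM with IL-21 and 0 to 2.20 CPM without in Ly6Clo, and 0 to 19.9 CPM with IL-21 and 4.10 to 49.6 CPM without in Ly6Chi. Both sums thus separated the stimulated from the unstimulated libraries in Ly6Clo, where they were higher with IL-21, and overlapped in Ly6Chi. Summed dendritic cell markers were lower with IL-21 in both subsets, as given beside Clec7a. The part of these cells in the Pirb difference was not tested.

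The blocked calls for Pirb rested on part of the libraries. When each of the 8 libraries was left out of the blocked fit in turn, the averaged call held in 6 of 8 fits, with log2 fold changes of 0.62 to 0.87. It was lost without Ly6Clo IL-21 number 2 (0.64, edgeR adjusted p 0.0951) and without unstimulated Ly6Clo number 1 (0.62, edgeR adjusted p 0.100). The Ly6Clo call held in 5 of 8 fits, at log2 fold changes of 0.86 to 1.37. It was lost without Ly6Clo IL-21 number 2 (0.91, edgeR adjusted p 0.355), unstimulated Ly6Clo number 1 (0.86, edgeR adjusted p 0.365) or unstimulated Ly6Clo number 2 (1.37, edgeR adjusted p 0.0651). With no filter on low counts and no block, Pirb in Ly6Clo passed at 1.08 (edgeR adjusted p 0.0488).

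Pirb's IL-21 effect in Ly6Clo minus that in Ly6Chi was 0.69 on the log2 scale (SE 0.35, 95% interval -0.04 to 1.43), with an edgeR adjusted p of 1 without the block and 0.9998 with it. A wider response in Ly6Clo was therefore not shown. Without IL-21, Pirb was 192 ± 25.7 CPM in Ly6Clo and 334 ± 67.4 CPM in Ly6Chi (SD, n = 2 each), a log2 difference of -0.78 (SE 0.25, edgeR adjusted p 0.995, with the block 0.121). With IL-21 it was 408 ± 11.9 CPM in Ly6Clo and 431 ± 82.8 CPM in Ly6Chi, a log2 difference of -0.08 (SE 0.24). In bulk libraries such as these, fewer cells that carry a transcript and less of it per cell cannot be told apart.

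**Figure D1:**
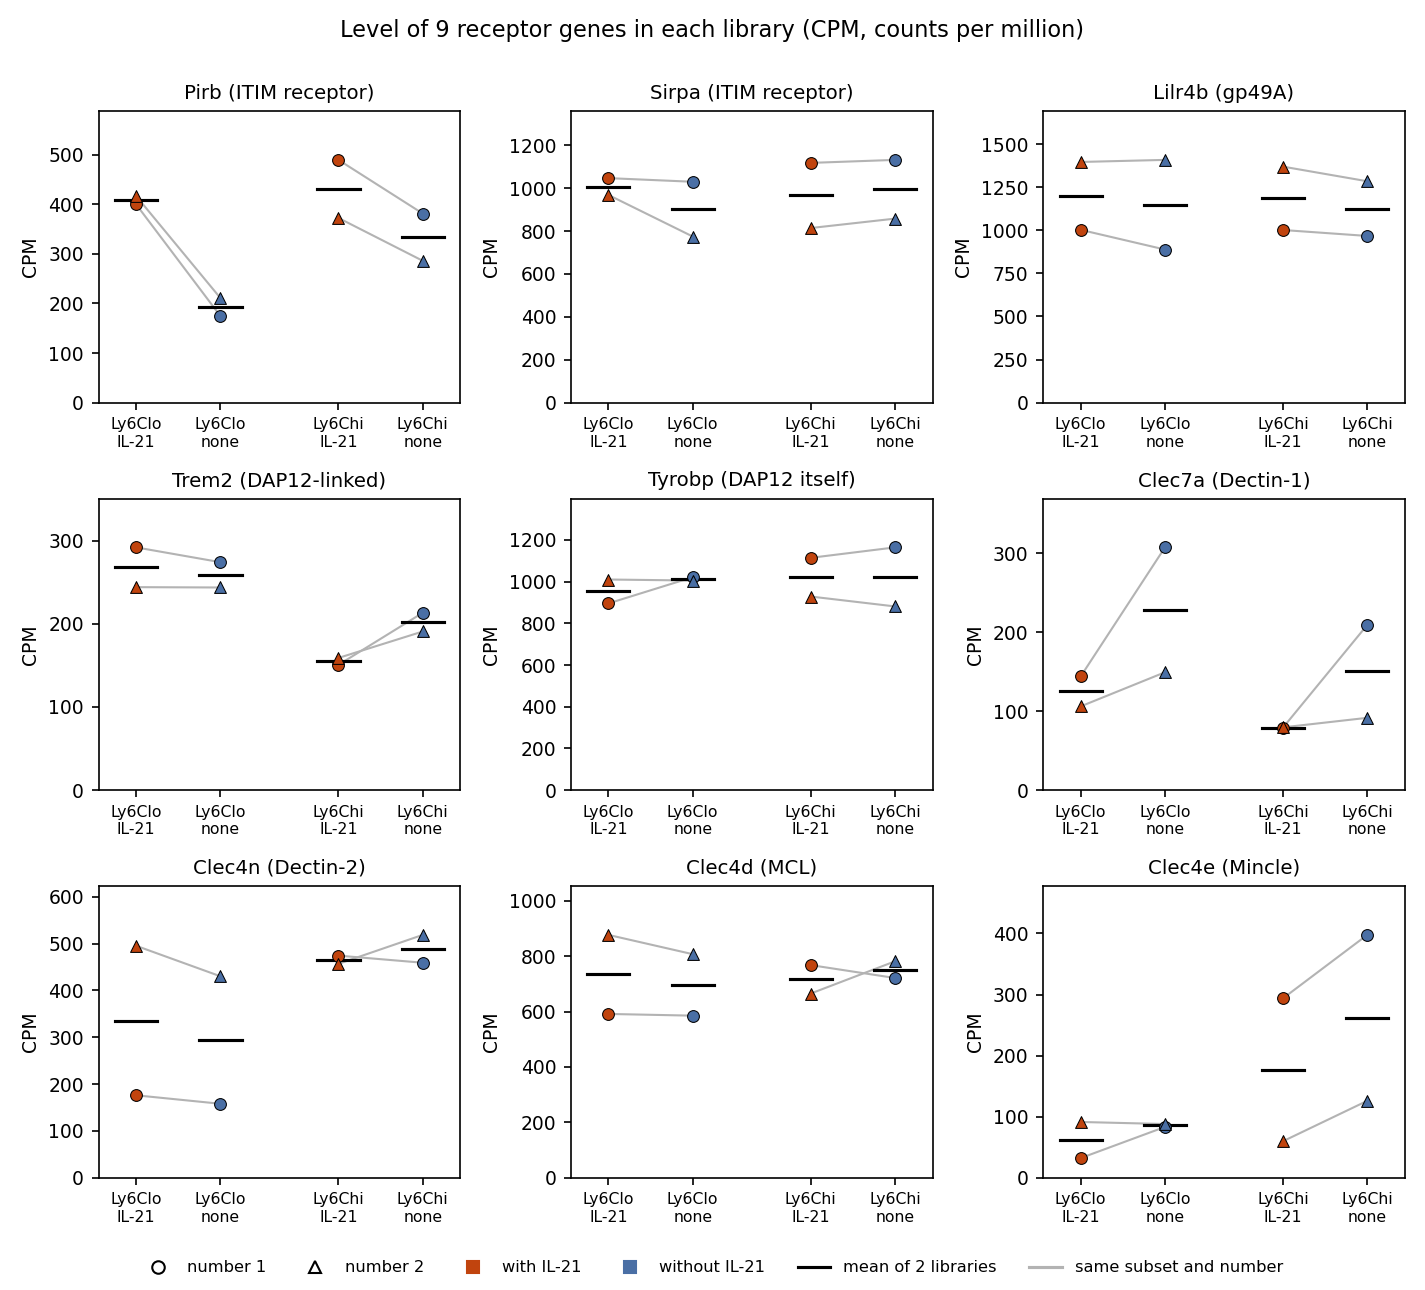
Level of each of the 9 detected members in CPM (vertical axes, from 0) in the 4 groups of 2 libraries, with circles for number 1, triangles for number 2, bars for the mean and grey lines joining libraries of the same subset and number. Pirb lies at 174 and 211 CPM in unstimulated Ly6Clo libraries and at 286 CPM or more in the other 6, Trem2 is highest in the 4 Ly6Clo libraries, and Clec7a is lower with IL-21 along each of the 4 lines.

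Sirpa, the inhibitory receptor for the "do not eat me" signal CD47, was nearly level across the groups. Sirpa (ENSMUSG00000037902, chr2:129592835-129632228, plus strand) had 1047 and 968 CPM with IL-21 and 1030 and 775 CPM without in Ly6Clo cells. In Ly6Chi cells it had 1118 and 814 CPM with IL-21, against 1132 and 858 CPM without. All 4 groups overlapped, and in each the library numbered 1 was the higher. The averaged IL-21 effect on Sirpa was 0.06 (SE 0.17, 95% interval -0.30 to 0.43). This interval overlaps that of Pirb, 0.35 to 1.09, and the difference between the genes was not tested.

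Lilrb4a, which encodes the inhibitory receptor gp49B, could not be read apart from its neighbours. Lilrb4a (ENSMUSG00000112148, chr10:51490956-51496611, plus strand) was listed at 0 in all 8 libraries. At these depths a count of 0 allows up to 6.58 to 14.9 CPM in a library, but only where reads of the gene can be assigned to it. Gm49339 (ENSMUSG00000062593, chr10:51480612-51496613), a gene model that spans Lilr4b and Lilrb4a and joins an upstream exon to those of Lilrb4a, had 225 to 643 counts. Of the 75-base stretches within 500 bases of annotated 3' ends, the read length and side of these libraries, 87.9% of those of Lilrb4a also occur in Gm49339, and 99.6% of those of Gm49339 occur in Lilrb4a. A count for Gm49339 can therefore not be told apart from one for Lilrb4a, and how such reads were assigned is not given in the sources used here.

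The 75 coding bases at the end of the Lilrb4a reading frame show the likeness. They occur letter for letter in 11 of 14 Lilrb4a transcripts, 3 of 3 Gm49339 transcripts and 10 of 13 transcripts of Lilr4b, with 0 differences, and are therefore printed without capitals (GENCODE M21, GRCm38, plus strand).
Lilrb4a, chr10:51496167-51496241: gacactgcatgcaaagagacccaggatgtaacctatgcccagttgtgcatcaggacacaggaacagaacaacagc

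A read that falls wholly within this exon part fits all 3 genes. Over the last 500 bases, however, only 18.9% of the stretches of Lilr4b were shared with Gm49339. Pirb shared 4.20% of its stretches, mostly with the unrelated gene Lrrn4cl, and the other 7 detected members shared none.

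**Figure D2:**
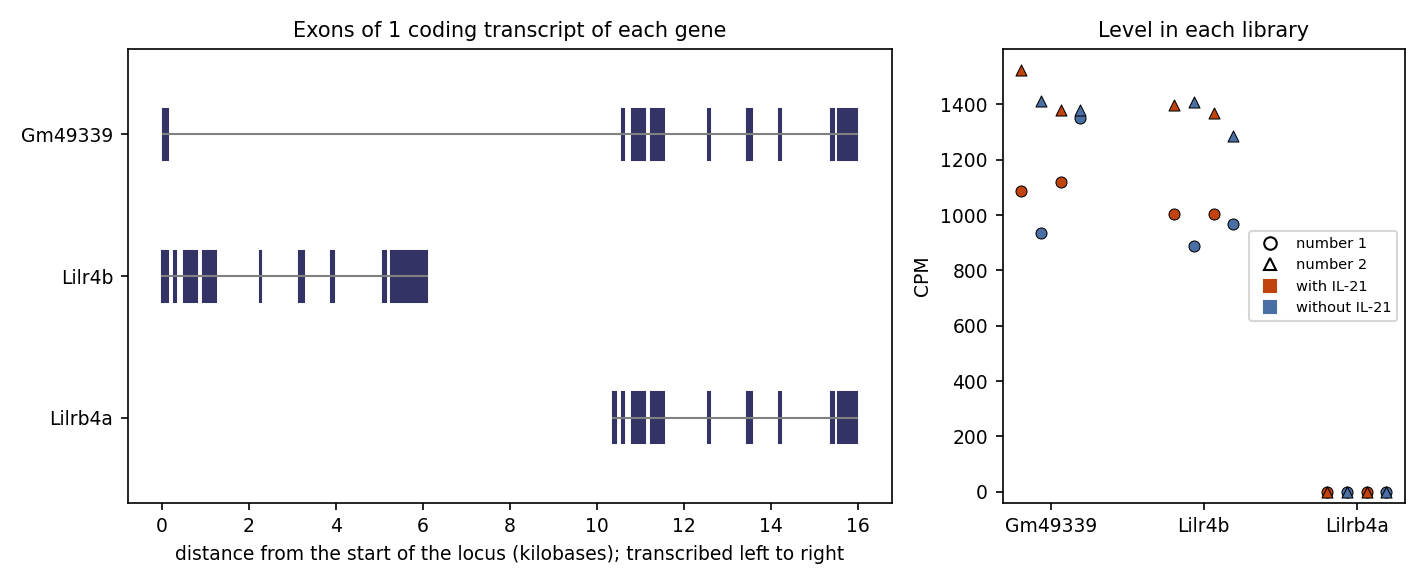
Left, exons (boxes) and introns (lines) of 1 coding transcript each of Gm49339, Lilr4b and Lilrb4a, by distance in kilobases from the start of the locus. Right, the level of each gene in CPM in the 8 libraries, coloured by stimulation, with circles for number 1 and triangles for number 2 and Ly6Clo libraries left of Ly6Chi ones. Gm49339 shares all but its left-most exon with Lilrb4a, and Lilrb4a is at 0 in all libraries.

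Gm49339 was 1087 and 1523 CPM with IL-21 and 934 and 1411 CPM without in Ly6Clo, and 1118 and 1380 CPM with IL-21 and 1349 and 1381 CPM without in Ly6Chi. Its averaged IL-21 effect was 0.01 (SE 0.18). Lilr4b (ENSMUSG00000112023, chr10:51480632-51486703, plus strand) encodes gp49A, the relative of gp49B known for lacking the inhibitory tail motifs. The level of Lilr4b in Ly6Clo was 1003 and 1397 CPM with IL-21 and 889 and 1409 CPM without. In Ly6Chi it was 1002 and 1370 CPM with IL-21 and 968 and 1285 CPM without. Both genes were higher in every library numbered 2 than in the library numbered 1 of the same group, and neither separated the groups. The averaged IL-21 effect on Lilr4b was 0.07 (SE 0.19, 95% interval -0.35 to 0.48), and it was 0.03 (SE 0.19) for Ly6Clo over Ly6Chi.

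Trem2, the DAP12-linked receptor for lipids, apolipoproteins and debris of dying cells, was higher in Ly6Clo than in Ly6Chi cells and passed that test with the replicate number as a block. Trem2 (ENSMUSG00000023992, chr17:48346401-48354147, plus strand) had 292 and 244 CPM with IL-21 and 274 and 244 CPM without in Ly6Clo cells. In Ly6Chi cells it had 151 and 159 CPM with IL-21, against 213 and 191 CPM without. The 4 Ly6Clo libraries all lay above the 4 Ly6Chi libraries, as they did for 2.64% of the genes tested. Within Ly6Chi the mean of Trem2 was 155 CPM with IL-21 and 202 CPM without. Within Ly6Clo it was 268 CPM with IL-21 and 259 CPM without, and the groups overlapped.

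Averaged over stimulation, Trem2 was 1.48-fold higher in Ly6Clo than in Ly6Chi, a log2 difference of 0.57 (SE 0.17) that did not pass (edgeR adjusted p 0.317). In the blocked fit Trem2 passed at 0.57 (SE 0.15, edgeR adjusted p 0.0362), but the call held in only 1 of 8 fits that left out a library, with log2 values of 0.50 to 0.63 and edgeR adjusted p of 0.0409 to 0.180. The subset difference was 0.78 (SE 0.25, edgeR adjusted p 0.845) with IL-21 and 0.35 (SE 0.24, edgeR adjusted p 0.995) without. The IL-21 effect on Trem2 was 0.05 (SE 0.23) in Ly6Clo and -0.38 (SE 0.25) in Ly6Chi, and neither passed. The difference between these effects was 0.43 (SE 0.34, edgeR adjusted p 1). The neutrophil list's largest gene, Mmp8, also differed with the subset, at 538 to 1196 CPM in Ly6Clo and 1285 to 2154 CPM in Ly6Chi. S100a8 of that list overlapped, at 45.7 to 104 CPM in Ly6Clo and 74.5 to 139 CPM in Ly6Chi. Csf3r, with 65 counts over all libraries, overlapped between the subsets too. S100a9, Lcn2 and Cxcr2 of the list had only 2, 2 and 4 counts over all libraries, and Retnlg and Ly6g were at 0. Whether neutrophils were present, and whether they had a part in the Trem2 difference, was not tested.

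Tyrobp encodes DAP12, the adaptor that Trem2 needs at the cell surface, and its level was nearly the same in all groups. Tyrobp (ENSMUSG00000030579, chr7:30413760-30417585, plus strand) was 895 and 1010 CPM with IL-21 and 1021 and 1005 CPM without in Ly6Clo, and 1114 and 928 CPM with IL-21 and 1164 and 881 CPM without in Ly6Chi. The groups overlapped throughout, and the highest library was 1.32 times the lowest, the narrowest span of the 9 detected members. For Ly6Clo over Ly6Chi the averaged log2 difference of Tyrobp was -0.06 (SE 0.16, 95% interval -0.39 to 0.28), and for IL-21 it was -0.04 (SE 0.16). Relative to Tyrobp within a library, Trem2 stood at ratios of 0.242 to 0.326 in Ly6Clo and 0.135 to 0.217 in Ly6Chi.

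To set inhibitory against DAP12-linked genes, the summed CPM of Pirb and Sirpa, with Lilrb4a at 0, was divided by the summed CPM of Trem2 and Tyrobp in each library. This ratio is compared between libraries only and carries no test, because the members were chosen with results known. In Ly6Clo it was 1.22 and 1.10 with IL-21, against 0.930 and 0.789 without. In Ly6Chi it was 1.27 and 1.09 with IL-21, against 1.10 and 1.07 without. The mean log2 difference with IL-21 was 0.44 in Ly6Clo and 0.12 in Ly6Chi, and leaving out single libraries gave 0.32 to 0.56 in Ly6Clo and 0.011 to 0.23 in Ly6Chi. The order of the subsets depended on the genes in the sums: with Trem2 alone as the DAP12-linked gene, the difference was 0.33 in Ly6Clo and 0.45 in Ly6Chi. With Gm49339 added to the inhibitory side, it was 0.32 in Ly6Clo and 0.028 in Ly6Chi. For Pirb and Sirpa over Trem2 and Tyrobp, the stimulated libraries lay above their unstimulated partners in 4 of 4 pairs. In Ly6Chi number 2 this was by little, at 1.09 with IL-21 against 1.07 without. The DAP12-linked side left out Sirpb1a, Sirpb1b and Sirpb1c, activating relatives of Sirpa known in mouse to pair with DAP12. Their averaged log2 fold changes with IL-21 were 0.65, 0.40 and 0.60. The ratio with them added was not computed, so the count of pairs holds for the sums used here only.

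Pirb over Trem2 alone gave wider steps. In Ly6Clo this ratio was 1.37 and 1.71 with IL-21, against 0.636 and 0.865 without, and in Ly6Chi 3.25 and 2.34 with IL-21, against 1.79 and 1.5 without. In Ly6Clo the step came from Pirb, since Trem2 was at about the same level in both groups, while in Ly6Chi Pirb was higher and Trem2 lower with IL-21 in each pair. Sirpa over Tyrobp was 0.771 to 1.17 in Ly6Clo and 0.877 to 1.0 in Ly6Chi, with overlap between stimulated and unstimulated libraries in each subset.

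**Figure D3:**
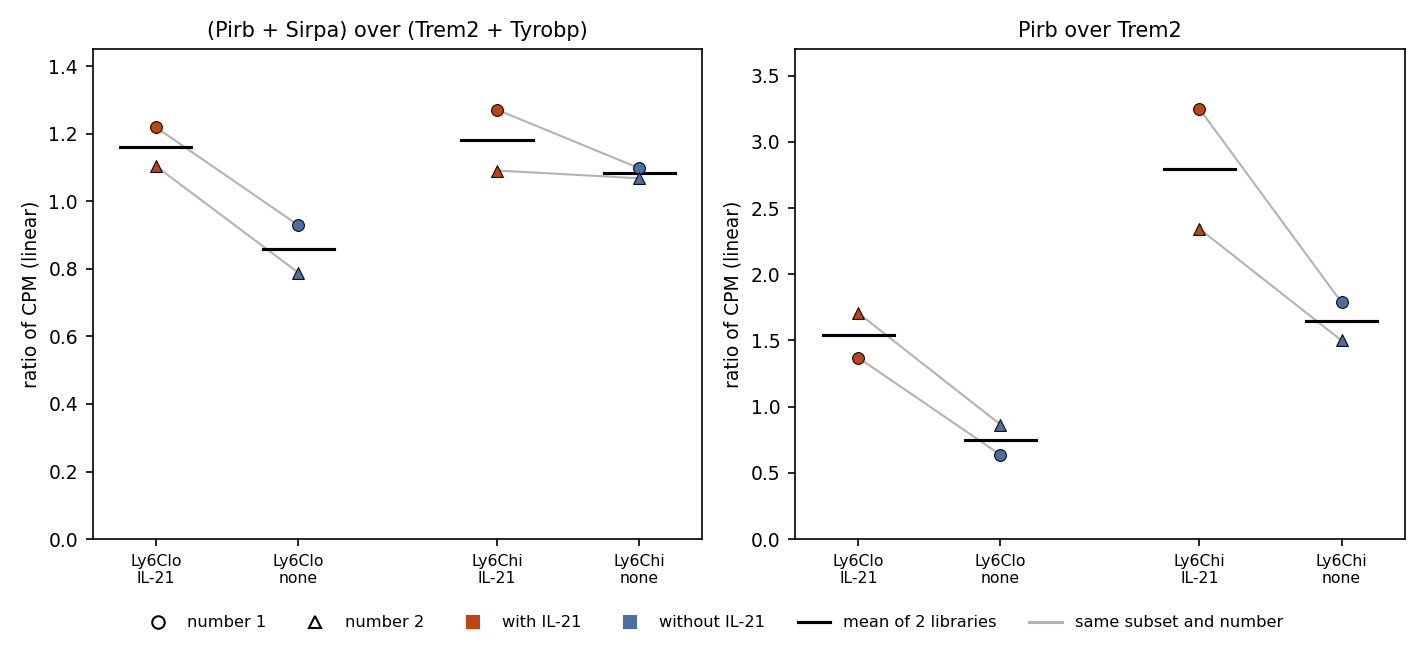
Ratio per library of summed inhibitory (Pirb and Sirpa) to summed DAP12-linked (Trem2 and Tyrobp) CPM, left, and of Pirb to Trem2, right, on linear axes from 0, with circles for number 1, triangles for number 2, bars for the mean and grey lines joining libraries of the same subset and number. Both ratios are higher with IL-21 along all 4 lines, and the unstimulated Ly6Clo libraries are lowest, at 0.930 and 0.789 on the left and 0.636 and 0.865 on the right.

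Clec7a, which encodes Dectin-1, the beta-glucan receptor that signals through a hemITAM of its own, had the lowest averaged difference with IL-21 of the 9 detected members, and it passed the test where the replicate number was a block. Clec7a (ENSMUSG00000079293, chr6:129461591-129472779, minus strand) was read at 16 to 74 counts per library. In Ly6Clo it was 144 and 106 CPM with IL-21, against 307 and 149 CPM without. In Ly6Chi it was 79.1 and 79.4 CPM with IL-21, against 209 and 91.5 CPM without. Clec7a was lower with IL-21 in 4 of 4 pairs of the same subset and number, as were 8.96% of the genes tested. Dendritic cell markers, of which 4 of 6 were detected with Cd209a and Siglech at 0, were also lower with IL-21 when summed. Their sum was 7.99 to 24.6 CPM with IL-21 and 29.1 to 87.8 CPM without in Ly6Clo, and 0 to 4.97 CPM with IL-21 and 20.5 to 42.0 CPM without in Ly6Chi. The groups did not overlap in either subset, but the stimulated Ly6Chi sums lay below the level of 3 counts. The sum was mainly Ccr7, with 48 counts over all libraries, and Xcr1, with 16. Zbtb46 went the other way in Ly6Clo, at 7.99 and 4.93 CPM with IL-21 and 4.15 and 4.39 CPM without. The part of these cells in the Clec7a difference was not tested.

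The size of the step in Clec7a differed between the replicate numbers. Among libraries numbered 1 the log2 difference was -1.06 in Ly6Clo and -1.33 in Ly6Chi, and among those numbered 2 it was -0.47 and -0.19. The averaged log2 fold change was -0.88 (SE 0.31), with an edgeR adjusted p of 0.767, and -1.11 to -0.52 when single libraries were left out. In the blocked fit Clec7a passed, at -0.86 (SE 0.20, edgeR adjusted p 0.0235), and this call held in 3 of 8 fits that left out a library. It was lost without any of the 4 libraries numbered 1 or without unstimulated Ly6Clo number 2, at log2 fold changes of -0.95 to -0.58 and edgeR adjusted p of 0.0801 to 0.418. Clec7a in Ly6Clo over Ly6Chi averaged 0.60 (SE 0.31, edgeR adjusted p 0.657, with the block 0.0918), and 0.32 to 0.96 when single libraries were left out of the fit without a block.

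The 3 lectins that pair with the Fc receptor gamma chain did not pass for IL-21 in either subset, with or without the block. Clec4n encodes Dectin-2, a receptor for fungal mannans (ENSMUSG00000023349, chr6:123229843-123247021, plus strand). Its level was 176 and 495 CPM with IL-21 and 158 and 430 CPM without in Ly6Clo, against 474 and 457 CPM with IL-21 and 459 and 519 CPM without in Ly6Chi. Both Ly6Clo libraries numbered 1 were thus far below the other 6. Among libraries numbered 1 the log2 difference of Ly6Clo over Ly6Chi was -1.40 with IL-21 and -1.5 without, and among those numbered 2 it was 0.12 and -0.27. The pooled subset difference of -0.57 (SE 0.40, edgeR adjusted p 0.808) therefore did not hold within libraries numbered 2, and it was -1.05 to -0.30 when single libraries were left out.

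Clec4e encodes Mincle, a receptor for mycobacterial glycolipid and for SAP130 released by dying cells (ENSMUSG00000030142, chr6:123281789-123289870, minus strand), and was the most variable member, with 8 to 97 counts per library. It had 32 and 91.2 CPM with IL-21 and 83.0 and 87.8 CPM without in Ly6Clo. In Ly6Chi it had 294 and 59.6 CPM with IL-21, against 398 and 126 CPM without. Only the Ly6Chi libraries numbered 1 stood clearly above the rest. Among libraries numbered 1 the log2 difference of Ly6Clo over Ly6Chi was -2.95 with IL-21 and -2.17 without, and among those numbered 2 it was 0.56 and -0.49. The pooled value of -1.54 (SE 0.63) did not pass (edgeR adjusted p 0.637) and was -2.05 to -0.73 when single libraries were left out. The IL-21 effect on Clec4e was -0.44 (SE 0.64), with a 95% interval from -2.01 to 1.12.

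Clec4d encodes MCL, the partner of Mincle (ENSMUSG00000030144, chr6:123262111-123275265, plus strand), and lies beside it on the chromosome. Clec4d was 592 and 877 CPM with IL-21 and 585 and 808 CPM without in Ly6Clo, and 768 and 665 CPM with IL-21 and 722 and 782 CPM without in Ly6Chi. It did not show the span of Clec4e: its highest library was 1.5 times the lowest, against 12.4 times for Clec4e. Its averaged IL-21 effect was 0.00 (SE 0.17, 95% interval -0.37 to 0.38).

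**Figure D4:**
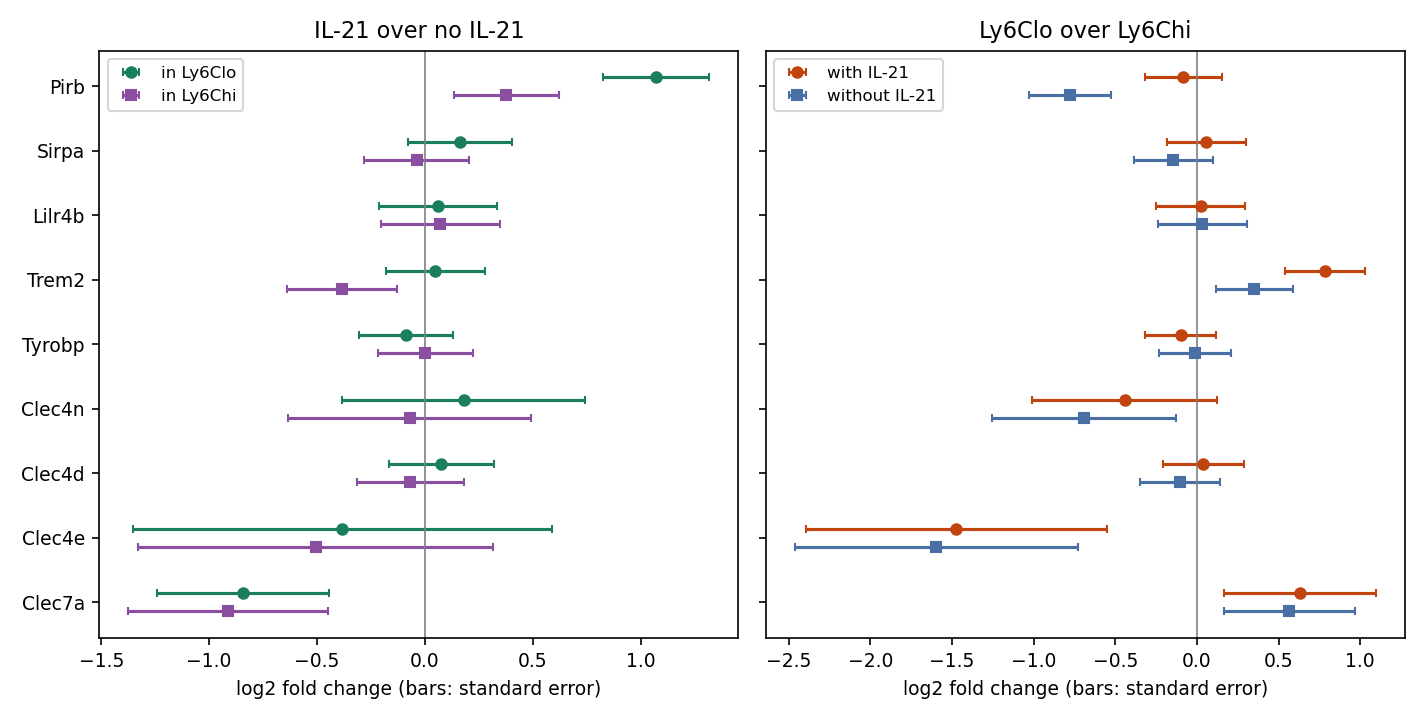
Log2 fold change (horizontal axes) of the 9 detected members in the edgeR fit without a block, with bars for the standard error. Left, IL-21 over no IL-21 in Ly6Clo (circles) and Ly6Chi (squares). Right, Ly6Clo over Ly6Chi with IL-21 (circles) and without (squares). Pirb is at 1.07 in Ly6Clo and Clec7a below 0 in both subsets on the left, Trem2 lies above 0 and Clec4e below 0 on the right, and the bars of Clec4e are the widest.

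Counted over all members, 0 of 9 tested passed in any of the 7 comparisons in the edgeR fit without a block. For the averaged IL-21 effect 0.171% of all genes tested passed, and 2 members, Pirb and Clec7a, had an unadjusted edgeR p under 0.05, as did 5.33% of all genes. In Ly6Clo 0.133% of genes passed, and 1 member, Pirb, had such a p, against 3.52% of genes. In Ly6Chi 0.019% of genes passed and 0 members had such a p, also against 3.52%, and for the difference between these effects 0% passed and 0 members had one, against 1.75%. For Ly6Clo over Ly6Chi averaged over stimulation 0.19% of genes passed, and Trem2 and Pirb had an unadjusted edgeR p under 0.05, as did 7.78% of genes. With IL-21 0.019% of genes passed and Trem2 had such a p, against 5.27%, and without IL-21 0.0381% passed and Pirb had one, against 4.53%. DESeq2 and limma-voom likewise called 0 members in each of these comparisons. In the blocked fit 1 member was called higher and 1 lower with IL-21 on average, against backgrounds of 0.989% higher and 0.152% lower, 1 was called higher with IL-21 in Ly6Clo (0.514%), and 1 was called higher in Ly6Clo over Ly6Chi (1.12%). The median log2 fold change of the 9 members was 0.00 for the averaged IL-21 effect and -0.04 for the subsets, against -0.01 and 0.00 over all genes tested.

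The adaptors, kinases and phosphatases downstream of these receptors were followed as a list of 23 genes, of which 19 were tested and 0 passed without a block. Their median averaged IL-21 effect was 0.19 on the log2 scale, against -0.01 over all genes tested, and 15 of 19 were above 0. The smallest p were those of Vav1, a guanine nucleotide exchange factor (0.55, SE 0.20, edgeR adjusted p 0.767), Btk, a kinase activated behind ITAMs (0.54, SE 0.20, edgeR adjusted p 0.781) and Lat2, a membrane scaffold (-0.36, SE 0.19, edgeR adjusted p 0.998). For Ly6Clo over Ly6Chi the list's median was -0.21, against 0.00 over all genes tested, and 1 of 19 was above 0. That gene was Lat2 (0.43, SE 0.19), and another of the small p was that of the adaptor Fyb (-0.44, SE 0.19, edgeR adjusted p 0.561). Fyb was the 1 gene of the list that passed with the block, at -0.46 (SE 0.12, edgeR adjusted p 0.0318), and 1.39% of all genes tested passed as lower in that fit. Fcer1g, the Fc receptor gamma chain that Clec4n, Clec4d and Clec4e need, was 1075 and 1543 CPM with IL-21 and 1129 and 1372 CPM without in Ly6Clo, and 1555 and 1465 CPM with IL-21 and 1250 and 1655 CPM without in Ly6Chi.

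Of 7 genes for ligands of these receptors 6 were tested, and 0 passed without a block. The median averaged IL-21 effect was -0.01, the same as over all genes tested, and 3 of 6 were above 0. The smallest p for IL-21 were those of Lgals3 (-0.18, SE 0.14), Fn1 (0.11, SE 0.47) and Cd47 (-0.03, SE 0.15). In Ly6Clo over Ly6Chi the median was 0.13, and 2 genes passed as higher with the block, as did 1.12% of all genes tested. Apoe, the apolipoprotein bound by TREM2, was 1943 and 1402 CPM with IL-21 and 2010 and 1339 CPM without in Ly6Clo, and 1246 and 1117 CPM with IL-21 and 1246 and 1053 CPM without in Ly6Chi. Its log2 difference was 0.52 (SE 0.18, edgeR adjusted p 0.456), and with the block 0.50 (SE 0.10, edgeR adjusted p 0.00493). Lgals3, which encodes galectin-3, differed by 0.39 (SE 0.14, edgeR adjusted p 0.525), with the block by 0.39 (SE 0.09, edgeR adjusted p 0.0158). Trem2 and Apoe were thus each higher in all 4 Ly6Clo than in all 4 Ly6Chi libraries, as were 2.64% of the genes tested. Any link between these genes was not tested.

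Other paired receptors formed a list of 28 genes, of which 17 were tested and 0 passed without a block. Their median averaged IL-21 effect was 0.08, with 10 of 17 above 0. The smallest p were those of Cd300ld (0.52, SE 0.18, edgeR adjusted p 0.70), Lair1 (-0.38, SE 0.19, edgeR adjusted p 0.946) and Cd300lb (-0.40, SE 0.21, edgeR adjusted p 0.9997). In Ly6Clo over Ly6Chi the median was -0.20, with 4 of 17 above 0, and 3 passed as lower with the block, as did 1.39% of all genes tested. Pilra, an inhibitory receptor, had 16.0 and 19.7 CPM with IL-21 and 24.9 and 17.6 CPM without in Ly6Clo, and 86.6 and 49.6 CPM with IL-21 and 73.8 and 38.1 CPM without in Ly6Chi. Its log2 difference was -1.67 (SE 0.37, edgeR adjusted p 0.120), and with the block -1.58 (SE 0.34, edgeR adjusted p 0.00638). Clec4a1 and Clec4a3, lectins of the DCIR group, differed by -0.73 (SE 0.13, edgeR adjusted p 0.000768) and -0.55 (SE 0.12, edgeR adjusted p 0.0112) with the block. Trem2 was thus higher in Ly6Clo cells where these 3 receptors were lower.

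Activating relatives of Sirpa and Pirb were listed as copies that might share reads with them. Of the 75-base stretches within 500 bases of its 3' ends, however, Sirpa shared 0% with another gene. Of 10 such genes 4 were present by symbol, and 3 were tested, Sirpb1a, Sirpb1b and Sirpb1c, the activating relatives of Sirpa known in mouse to pair with DAP12. Sirpb1a was 79.9 and 111 CPM with IL-21 and 41.5 and 68.0 CPM without in Ly6Clo, and 109 and 144 CPM with IL-21 and 65.6 and 107 CPM without in Ly6Chi. The averaged log2 fold changes with IL-21 were 0.65 (SE 0.26, edgeR adjusted p 0.829) for Sirpb1a, 0.40 (SE 0.30, edgeR adjusted p 0.9997) for Sirpb1b and 0.60 (SE 0.20, edgeR adjusted p 0.70) for Sirpb1c, and none passed with the block. Sirpa, by contrast in size only, averaged 0.06, and the difference between these genes was not tested. Of the listed Pira genes, activating relatives of Pirb, only Pira2 was found by symbol, with 4 counts in all. Adding it to Pirb left every call of Pirb unchanged in the fit without a block. With so few counts added, this sum cannot show whether Pirb shares reads with Pira genes that were not found by symbol. Of Pirb's own 75-base stretches near the 3' end, 4.20% occurred in another gene, 3.80% in Lrrn4cl. None of the genes listed as sharing the most carried a Pira symbol.

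The genes whose pattern over the 8 libraries was most like that of Pirb were Ctsc, Eif2ak1 and Junb, with root mean square differences of 0.155, 0.189 and 0.210 in log2 CPM centred on each gene's mean. The median over the 2924 genes compared was 0.545. Ctsc, which encodes the lysosomal protease cathepsin C, had 1211 and 1111 CPM with IL-21 and 639 and 707 CPM without in Ly6Clo, and 1363 and 1028 CPM with IL-21 and 996 and 915 CPM without in Ly6Chi. Those most like Trem2 were Rplp1, a ribosomal protein gene, and H2-DMb1 and H2-Ab1, genes of MHC class II presentation, at 0.0885, 0.103 and 0.107, against a median of 0.419. H2-Ab1 was 544 and 446 CPM with IL-21 and 515 and 413 CPM without in Ly6Clo, and 328 and 263 CPM with IL-21 and 394 and 343 CPM without in Ly6Chi.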

How the data were processed

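RNA of 8 libraries was read from the 3' end with a QuantSeq kit and its module for molecular identifiers, in single reads of 75 bases (per the labels' protocols). The authors deposited expected counts, that is estimated counts with fractions, for 53342 Ensembl genes per library, headed as raw per the file headers, and 53.3 to 59.7% of values above 0 were not whole at a tolerance of 0.001. The build mm10 and DESeq2, with no version, come from the submitters' processing notes. For the aligner, counter, annotation and any use of identifiers or strand, nothing was given in the sources used here.

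Values were rounded, and 53237 identifiers took symbols and positions from GENCODE M21 (GRCm38). edgeR 4.0.16 (limma 3.58.1, R 4.3.3) kept 5256 genes (filterByExpr, minimum count 10, minimum total 15), scaled by TMM and fitted 4 group means by robust quasi-likelihood. Calls were made at a Benjamini-Hochberg adjusted p under 0.05 over all genes kept. CPM use the TMM-scaled totals of these genes. Limits from a count of 0 (3 counts) cover counting error only.

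The main fit has no block. Deviations of libraries numbered 1 from those numbered 2, taken from the titles, correlated between groups at 0.23 to 0.41 in all 6 pairs of groups, so the fit with the number as a block is printed where it changes a call. Also tried were DESeq2 1.42.0, limma-voom, other scalings and filters, unrounded values, 2-group fits, summed copies and leaving out each library. The fit without a block was tried on simulated counts, for the averaged IL-21 effect only and with no difference between replicate numbers. The blocked fit was not tried in this way.

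All 10 members are named, with the called genes and up to 3 genes of smallest p per list, except 1 gene of the signalling list that is not reported here. Members and lists were chosen with earlier results of these data known. Genes most like Pirb and Trem2 were sought among tested genes with a mean of at least 20 counts.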

Additional observations from a re-analysis of the deposited data

How the results depend on the processing

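In the fit with a replicate block, 2 members (Pirb, Clec7a) passed for the averaged IL-21 effect, 1 (Pirb) in Ly6Clo and 1 (Trem2) for Ly6Clo over Ly6Chi, against 0 in each without it, and the block changed no other call among the members. Without a filter on low counts 1 member (Pirb) passed in Ly6Clo. The remaining alternatives without a block, leaving out single libraries included, called 0 members in the comparisons they allow. The ratio of inhibitory to DAP12-linked genes moved with IL-21 by 0.33 in Ly6Clo and 0.45 in Ly6Chi with Trem2 alone below, by 1.15 in Ly6Clo and 0.42 in Ly6Chi with Pirb alone above, and by 0.32 in Ly6Clo and 0.028 in Ly6Chi with Gm49339 added above (chosen after seeing the data), on the log2 scale. Values near 0 changed sign. Tyrobp in Ly6Chi was -0.0026 under DESeq2-style size factors, -0.014 unfiltered, -0.0064 at a mean count of at least 20, -0.0024 in DESeq2, -0.0017 unrounded, -0.0062 in the fit of 2 groups and -0.00077 with copies summed. Clec4d on average was -0.011 at a mean count of at least 20 and -0.0010 in limma-voom. Sirpa in Ly6Chi was 0.063 with its copies summed. In sums chosen after seeing the data, with Gm49339 and Lilrb4a added, Lilr4b was -0.033 in Ly6Chi and -0.028 for Ly6Clo over Ly6Chi. Leaving out each library in turn gave log2 fold changes on both sides of 0 for the following members, none of them called. For the averaged IL-21 effect these ranges were Clec4d -0.15 to 0.14, Clec4e -1.25 to 0.084, Clec4n -0.42 to 0.53, Lilr4b -0.076 to 0.26, Sirpa -0.057 to 0.18 and Tyrobp -0.13 to 0.073. For the effect in Ly6Clo these ranges were Clec4d -0.23 to 0.35, Clec4e -1.40 to 0.086, Clec4n -0.78 to 1.13, Lilr4b -0.22 to 0.45, Sirpa -0.019 to 0.39 and Trem2 -0.079 to 0.19. For the effect in Ly6Chi these ranges were Clec4d -0.17 to 0.027, Clec4e -2.12 to 0.56, Clec4n -0.14 to 0.021, Lilr4b -0.17 to 0.29, Sirpa -0.28 to 0.19 and Tyrobp -0.19 to 0.23. For Ly6Clo over Ly6Chi these ranges were Clec4d -0.19 to 0.092, Lilr4b -0.16 to 0.18, Sirpa -0.16 to 0.083 and Tyrobp -0.15 to 0.061. The cause of these changes was not tested. At 224329 to 483593 counts per library, Clec4e and Clec7a rest on as few as 8 and 16 counts.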
